A study of Arabidopsis thaliana with 18 samples.

Results

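Seedlings of Arabidopsis thaliana carrying the arp6-10 mutation were compared 24 h after a move from 12 °C to 27 °C with seedlings of the same genotype at 12 °C. The comparison takes 8 of the 18 arrays of the series, the 4 labelled arp6-10 24 h and the 4 labelled arp6-10 12 °C, each hybridised with RNA of whole seedlings. It is given as labelled (4 against 4 arrays) and with the arrays labelled arp6-10 24 h replicate 2 and arp6-10 12 °C replicate 3 set aside (3 against 3), because each of them resembled the other group. All seeds spent 48 h at 4 °C in the dark and then moved to 20 °C in the light, and 5-day-old seedlings were kept for 3 days at 12 °C in continuous light before the shift. The other groups used are arp6-10 2 h after the shift (4 arrays), and the wild type Col-0 24 h after the shift and at 12 °C (2 arrays each), all 8 days old by their labels. The labels give no group held at 12 °C for a further 24 h, so warmth and elapsed time cannot be told apart, and they do not state that replicate arrays were grown as independent cultures. The p-values therefore rest on the scatter of the hybridised samples, part of which may be technical.

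ARP6, an actin-related protein, belongs to the SWR1 chromatin remodelling complex, which exchanges histone H2A for the variant H2A.Z in nucleosomes. The title of the series concerns H2A.Z nucleosomes and the sensing of temperature, and this comparison asks what a day of warmth changed in seedlings that lack a working SWR1 subunit. Plants held in the cold accumulate cold-regulated (COR) proteins and often anthocyanin pigments, and their growth and photosynthesis slow. On return to warmth these programmes are withdrawn, while cell wall loosening proteins and the photosynthetic machinery are made again. ARP6 itself has no probe set paired with it alone, so the mutation was not checked on its transcript.

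Intensities are given as log2(intensity + 16) after quantile normalization over the 18 arrays, a scale that cannot go below 4. It understates the changes of dim genes, and a group mean under 5 is not shown to be above background. A probe set was called at an adjusted p under 0.05 in limma (Benjamini-Hochberg over all 15922 tested), and "rose" and "fell" below mean called in that way in the 3 against 3 fit. Those 2 arrays were set aside for their profile over these same genes, so the calls, p-values and fold changes of the 3 against 3 fit depend on that choice. In whole seedlings, fewer cells of a type and less RNA per cell cannot be told apart.

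The 2 arrays stood out on genes chosen without any arp6-10 array. From the Col-0 arrays, the 100 genes with the largest increase and the 100 with the largest decrease after 24 h were taken, and the mean of the second set was subtracted from that of the first on each array. The arp6-10 24 h arrays stood at 2.03, -0.70, 2.07 and 1.76 (replicates 1 to 4), against -0.42, -0.22, 2.3 and -0.51 for arp6-10 12 °C. Replicate 2 of the 24 h group thus lay below the 12 °C arrays 1, 2 and 4, and replicate 3 of the 12 °C group above all 24 h arrays. The 4 arrays at 2 h stood between 0.32 and 0.96. Over all tested probe sets the array labelled 24 h replicate 2 correlated best with 12 °C replicate 4 (Pearson r = 0.988 across probe sets), and the array labelled 12 °C replicate 3 with 24 h replicate 3 (r = 0.981). GAPDH probe sets at the 3' and 5' ends, whose ratio is a sign of RNA integrity, gave ratios of 1.94, 1.51, 4.36 and 6.48 at 24 h, against 1.47, 4.28, 5.51 and 2.26 at 12 °C. Ratios of the actin probe sets were higher, at 25.63, 22.54, 29.28 and 39.99 at 24 h, against 29.69, 46.86, 51.51 and 35.99 at 12 °C. For GAPDH and for actin the ranges of the groups overlapped with or without the 2 arrays. The part of these ratios in the results was not tested.

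**Figure D1:**
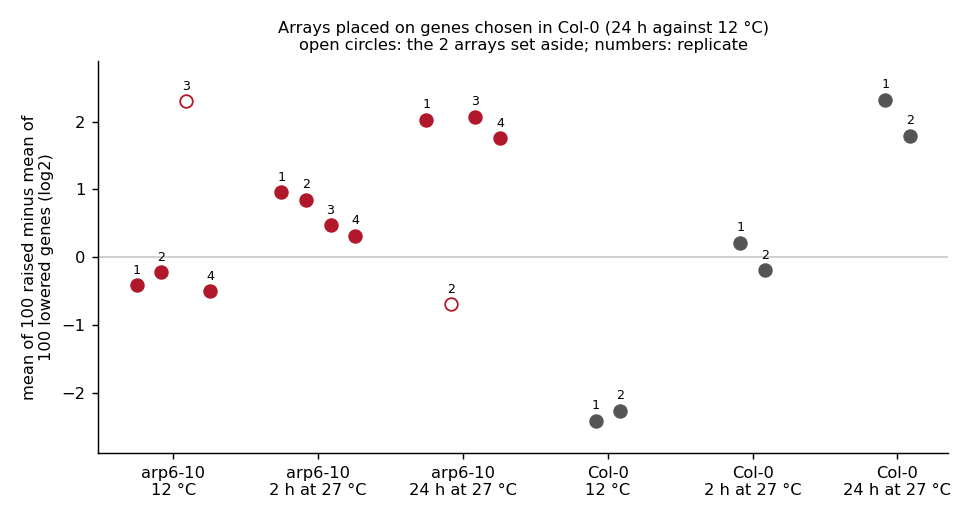
Mean level of 100 genes raised minus mean level of 100 genes lowered in Col-0 after 24 h (log2 units, vertical axis) on each array of the 6 groups, with replicate numbers. The open circles are the arrays labelled arp6-10 12 °C replicate 3 (2.3) and arp6-10 24 h replicate 2 (-0.70), which lie with the other group; the Col-0 values are no test, since the genes were chosen on them.

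As labelled, no probe set was called (0%, limma), and the lowest adjusted p was 0.465. At an unadjusted p under 0.05 there were 823 probe sets with higher and 868 with lower means at 24 h. The 4 arrays of the 24 h group lay above all 4 of the 12 °C group at 153 probe sets (0.961%) and below them at 207 (1.3%). With the 2 arrays set aside 2224 probe sets rose (14%) and 2368 fell (14.9%), of which 702 and 549 changed at least 2-fold and 84 and 59 at least 4-fold. Of the 8 arrays 6 are the same in both comparisons, so the signs of their changes do not bear on each other independently. Among the 8675 named genes tested, 1166 rose and 1263 fell.

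Genes of anthocyanin and flavonoid synthesis were among those with the largest decreases. DFR (AT5G42800), dihydroflavonol 4-reductase, which commits flavonoids to the anthocyanin branch, stood at 7.61, 11.86, 6.6 and 7.12 on the 24 h arrays (replicates 1 to 4), against 11.84, 11.64, 6.79 and 11.64 on the 12 °C arrays. Only 24 h replicate 2 and 12 °C replicate 3 broke the separation, each at the level of the other group. DFR fell 24.2-fold, to 7.11 ± 0.51 at 24 h, against 11.71 ± 0.11 at 12 °C (SD, n = 3 each; log2 change -4.60 ± 0.22 SE, limma adjusted p = 2.68e-11). As labelled the log2 change was -2.18 ± 1.02 SE (limma adjusted p = 0.468). All 6 tested members of the flavonoid list fell (median log2 change -2.81, and -1.30 as labelled), against 14.9% of all probe sets. They are DFR, CHIL, a chalcone isomerase-like protein, and 4 enzymes that decorate the pigments.

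The decorating enzymes followed DFR. UF3GT (AT5G54060, UGT79B1), which adds a sugar to anthocyanins, stood at 6.70, 10.52, 6.17 and 6.33 at 24 h, against 10.10, 10.20, 5.87 and 10.52 at 12 °C. It fell 14.7-fold (log2 change -3.88 ± 0.19 SE). AT5MAT (AT3G29590), a malonyltransferase of anthocyanins, stood at 5.37, 9.02, 5.55 and 5.44 at 24 h, against 8.64, 8.43, 5.06 and 9.30 at 12 °C, a 10.1-fold decrease. CHIL fell 4.9-fold, and the flavonol glycosyltransferases UGT78D2 and UGT78D1 3.26-fold and 1.99-fold. AT4G14090, which the gene table gives no symbol and which is in no list, fell 15.8-fold. In each of these genes the 3 kept arrays of the groups did not overlap, while the 2 arrays set aside took the level of the other group.

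The decrease in this pathway was already present 2 h after the shift. DFR stood at 8.27 ± 0.21, UF3GT at 7.12 ± 0.22 and CHIL at 8.18 ± 0.11 on the arp6-10 2 h arrays (SD, n = 4). All 6 members were called lower at 2 h than at 12 °C (median log2 change -2.75), where 8.63% of probe sets were called lower and 8.4% higher. The 2 h and 24 h comparisons share the 12 °C arrays, so their values are set side by side only.

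Cold-regulated genes split into a group that fell strongly and a group that did not pass the test. COR15A (AT2G42540), which encodes a chloroplast protein that protects membranes from freezing, stood at 7.97, 11.55, 8.18 and 8.27 at 24 h, against 11.91, 11.74, 7.65 and 11.67 at 12 °C. It fell 12.4-fold (log2 change -3.64 ± 0.24 SE, and -1.75 ± 0.82 SE as labelled). Its close relative COR15B fell 6.71-fold and LTI30, a cold-induced dehydrin, 4.34-fold. These 3 of 7 tested members fell and none rose, against 14.9% and 14% of all probe sets (median log2 change -0.50, and -0.38 as labelled). COR47, another dehydrin, had a log2 change of -0.24, LEA4-5 of 0.23, the zinc finger gene STZ of -0.20 and COR27 of -0.50, none past the test.

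At 2 h, 4 of the 7 cold-regulated genes were called lower than at 12 °C (COR15A, LTI30, COR27 and STZ, median of the list -0.73), beside 8.63% of all probe sets. COR15A stood at 11.04 ± 0.53 and COR15B at 10.68 ± 0.19 on the 2 h arrays (SD, n = 4), with log2 changes from 12 °C of -0.73 (limma adjusted p = 0.033) and -0.41, which did not pass. The log2 changes of DFR at 2 h and 24 h were -3.44 and -4.60, those of COR15A -0.73 and -3.64, and those of COR27 -0.83 and -0.50. Whether the genes differ in timing was not tested.

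**Figure D2:**
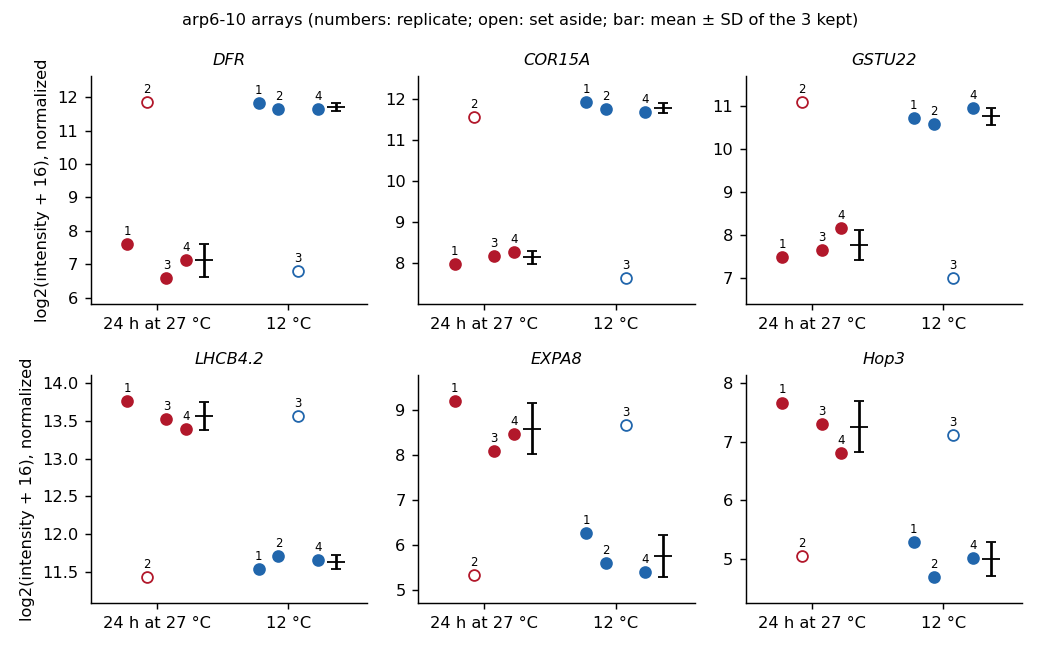
Level of 6 genes on each arp6-10 array (log2(intensity + 16), vertical axes), 24 h left of 12 °C, with replicate numbers; bars are the mean ± SD of the 3 kept arrays. DFR, COR15A and GSTU22 are lower and LHCB4.2, EXPA8 and Hop3 higher on 24 h replicates 1, 3 and 4 than on 12 °C replicates 1, 2 and 4, and the open circles (24 h replicate 2, 12 °C replicate 3) lie at the level of the other group.

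Photosynthesis genes of the nuclear genome rose together. LHCB4.2 (AT3G08940), a light-harvesting protein of photosystem II, stood at 13.76, 11.44, 13.52 and 13.40 at 24 h, against 11.53, 11.71, 13.56 and 11.65 at 12 °C. It rose 3.81-fold (log2 change 1.93 ± 0.13 SE, and 0.91 ± 0.44 SE as labelled). PGRL1B (AT4G11960), of cyclic electron flow around photosystem I, stood at 9.17, 6.11, 8.67 and 8.71 at 24 h, against 6.80, 6.93, 8.99 and 6.31 at 12 °C, and rose 4.5-fold. Of 11 tested members of the light harvesting and photosystem list 10 rose, against 14% of all probe sets, and none fell (median log2 change 0.84, and 0.36 as labelled). LHCB4.3 rose 2.98-fold, LHCB4.1 1.79-fold and PSAN, a photosystem I subunit, 2.36-fold. PSAE-1, the member that did not pass, had a log2 change of 0.32, and without 1 kept array in turn 8 to 11 members rose. The summed intensity of the 11 genes lay between 98904 and 108006 on the 3 kept 24 h arrays, against 56558 to 65258 on the 3 kept 12 °C arrays.

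Other nuclear chloroplast genes were more divided. HPR, hydroxypyruvate reductase of photorespiration, and PRK, phosphoribulokinase of the Calvin cycle, rose with log2 changes of 1.00 and 0.74, as 2 of 4 tested members. Of 9 chlorophyll and carotenoid genes 3 rose and 2 fell, beside 14% and 14.9% of all probe sets. CHLM, which methylates Mg-protoporphyrin, rose 2.14-fold, PORB, a protochlorophyllide oxidoreductase, 1.72-fold and HEME1, uroporphyrinogen decarboxylase, 1.48-fold. GSA1 and CHLI2, also of chlorophyll synthesis, fell 1.67-fold and 1.51-fold. CHLI2 was not called without 24 h replicate 1 or 12 °C replicate 1.

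Plastid-encoded genes moved by the product they encode. Of 69 tested, 27 rose and 1, rbcL (the large subunit of Rubisco), fell, against 14% and 14.9% of all probe sets (median log2 change 0.51, and 0.23 as labelled). Of 42 genes for subunits of the photosystems, the cytochrome b6f complex, the NDH complex and the ATP synthase, 25 rose and none fell, with a median of 0.87 (0.57 as labelled). Of 19 genes for ribosomal proteins and RNA polymerase, 1 (rpl32) rose and none fell, with a median of -0.01. The call of rpl32 was lost without 5 of the 6 kept arrays in turn and that of rbcL without 3. This division by gene symbol was made after the values were seen. Photosystem II genes had the highest median, 1.09, with 13 of 15 called, followed by the NDH complex (0.86, 5 of 10), photosystem I (0.81, 2 of 5), the ATP synthase (0.74, 3 of 6) and cytochrome b6f (0.42, 2 of 6). psbB, a chlorophyll-binding core subunit of photosystem II, stood at 10.31, 10.02, 10.78 and 10.07 at 24 h, against 7.39, 7.94, 10.75 and 9.52 at 12 °C, and rose 4.3-fold (log2 change 2.1 ± 0.46 SE).

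The plastid values varied more between arrays than those of nuclear genes. The mean level of the 42 genes was 11.31, 11.15, 11.76 and 11.50 at 24 h, against 10.17, 10.46, 11.55 and 11.32 at 12 °C. Here 24 h replicate 2 lay just under the other 24 h arrays, and 12 °C replicate 4 (11.32) stood level with 24 h replicate 1 (11.31), so the kept groups overlapped in this mean. For the 19 ribosomal protein and polymerase genes it was 11.09, 11.73, 11.82 and 11.54 at 24 h, against 11.27, 11.55, 11.57 and 11.93 at 12 °C. Without 12 °C replicate 1 the count of 25 was 15, and without 24 h replicate 3 it was 17; without 12 °C replicate 4 it was 31. Over all 69, these counts of risen genes were 15, 17 and 33.

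**Figure D3:**
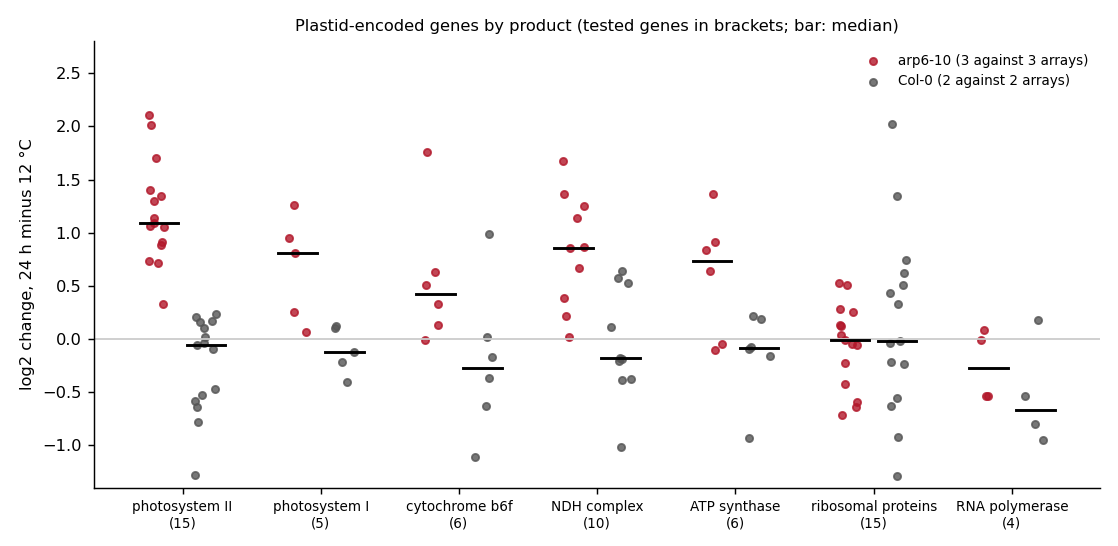
Log2 change after 24 h (24 h minus 12 °C, vertical axis) of each tested plastid-encoded gene, grouped by the complex its product belongs to, in arp6-10 (3 against 3 arrays) and in Col-0 (2 against 2 arrays); bars are medians. In arp6-10 photosystem II genes have the highest median (1.09) and ribosomal protein genes a median of -0.01, while the Col-0 medians of these classes are -0.05 and -0.02.

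Of 19 tested growth and cell wall genes 6 rose and 2 fell (median log2 change 0.13, and 0.17 as labelled), beside 14% and 14.9% of all probe sets. EXPA8 (AT2G40610), an expansin, stood at 9.21, 5.32, 8.09 and 8.47 at 24 h, against 6.27, 5.58, 8.68 and 5.4 at 12 °C, and rose 7.17-fold (log2 change 2.84 ± 0.25 SE, and 1.29 ± 0.68 SE as labelled). The expansin-like gene EXLA1 rose 3.87-fold and EXO (EXORDIUM), which promotes cell expansion, 2.55-fold. Over the 13 tested expansins and expansin-like genes 3 rose, none fell, 5 changes were positive and the median was -0.12. The xyloglucan endotransglucosylase XTH16 was among those that rose, and its relatives XTH20 and XTH32 fell 5.00-fold and 2.32-fold. XTH20 stood at 6.56, 9.08, 6.02 and 6.14 at 24 h, against 8.78, 8.24, 5.81 and 8.67 at 12 °C. Members of this family therefore moved in opposite directions.

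Of 10 tested hormone genes 2 rose and 1 fell. WES1 (GH3.5), which conjugates auxin to amino acids, rose 1.95-fold and HAT2, an auxin-responsive homeobox gene, 1.70-fold, and the gibberellin receptor gene GID1B fell 1.79-fold. The other 7 of 10 tested hormone genes, among them the auxin synthesis gene YUC2 (log2 change 0.37), did not pass. Of 8 cell cycle genes 3 rose, the mitotic kinase AUR1 1.56-fold, the cell cycle inhibitor SIM 1.55-fold and POLA3 (POLA4), of DNA primase, 1.43-fold. The shares over all probe sets were 14% and 14.9%. AUR1 was not called without 24 h replicate 1 or 12 °C replicate 4, nor POLA3 without 24 h replicate 1 or 3 or 12 °C replicate 1, so that 1 of the 8 rose without 24 h replicate 1.

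Genes of ribosome production fell. Of 8 tested members 4 fell and none rose, against 14.9% and 14% of all probe sets, and all 8 changes were negative (median log2 change -0.61, and -0.30 as labelled). AT5G14520 (PES, Pescadillo), which is needed to form the large ribosomal subunit, stood at 9.84, 10.98, 10.08 and 9.51 at 24 h, against 10.70, 11.05, 10.28 and 11.08 at 12 °C, and fell 2.2-fold. NRPA1 and NRPA2, the large subunits of RNA polymerase I, which transcribes ribosomal RNA, fell 1.94-fold and 1.75-fold, and the RNA helicase AT3G09720 (RH57) 1.85-fold, the one member of 3 in a list of RNA helicases that passed. The members called at 24 h had log2 changes between -0.59 and -0.82 at 2 h.

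Of 7 tested heat shock genes 3 rose and 1 fell, where 14% and 14.9% of all probe sets did (median log2 change -0.05). Hop3 (AT4G12400), which links HSP70 and HSP90, stood at 7.67, 5.04, 7.30 and 6.80 at 24 h, against 5.29, 4.69, 7.12 and 5.01 at 12 °C, and rose 4.8-fold. AT5G48570 (ROF2), a peptidyl-prolyl isomerase, stood at 7.34, 5.13, 6.46 and 6.61 at 24 h, against 4.64, 4.16, 7.17 and 5.04 at 12 °C, and rose 4.56-fold. The 12 °C means of the kept arrays, 5.00 and 4.61, were at or under 5, so these folds are rough. On the 2 h arrays Hop3 stood at 8.78 ± 0.38 and AT5G48570 at 9.98 ± 0.29 (SD, n = 4). HSA32 rose 1.77-fold and BOB1, a small heat shock protein relative, fell 1.65-fold. The co-chaperone genes Hop1 and Hop2 had log2 changes of -0.05 and -0.31 that did not pass. Of 4 genes of protein folding in the endoplasmic reticulum 1, the co-chaperone ATERDJ3B, rose (1.49-fold), beside 14% of all probe sets, and it was not called without 24 h replicate 1 or 12 °C replicate 1.

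Enzyme families of secondary metabolism and detoxification moved in both directions. Of 10 tested glutathione transferases 3 rose and 3 fell, beside 14% and 14.9% of all probe sets. GSTU25 (AT1G17180) stood at 8.02, 12.63, 9.39 and 9.28 at 24 h, against 11.90, 11.73, 7.47 and 12.44 at 12 °C, and fell 8.75-fold. GSTU22 fell 7.96-fold and GSTU20 2.19-fold, while GSTU18 rose 3.87-fold and GSTU27 and GSTU16 rose 1.69-fold and 1.54-fold. Without 12 °C replicate 4, GSTU18 was the 1 member that rose. Of 31 UDP-glycosyltransferases 6 rose, led by UGT71C1 (log2 change 1.45, 12 °C mean under 5), and 7 fell, 3 of them the flavonoid enzymes above, counts close to the shares of 14% and 14.9% over all probe sets. Without 24 h replicate 4, 3 of the 31 rose. Of 14 cytochrome P450s 5 rose and 3 fell, with CYP71B22 and CYP71B24 up 3.02-fold and 2.79-fold from 12 °C means under 5. These counts were 3 risen without 12 °C replicate 4 and 1 fallen without 24 h replicate 3.

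Starch and sugar genes also divided. SWEET17, a vacuolar fructose transporter, rose 2.39-fold, QQS, a regulator of starch content, 1.88-fold, DPE1, of starch breakdown, 1.66-fold, and the starch branching enzyme SBE2.2 1.58-fold. APL3 and APL4, large subunits of ADP-glucose pyrophosphorylase, fell 2.83-fold and 1.83-fold. These made up 4 risen and 2 fallen of 8 tested members, beside 14% and 14.9% of all probe sets. SBE2.2 was not called without 24 h replicate 1 or 12 °C replicate 1, and APL4 not without 12 °C replicate 4. APL3 stood at 5.88, 7.96, 6.0 and 6.46 at 24 h, against 7.35, 7.48, 6.24 and 8.02 at 12 °C.

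**Figure D4:**
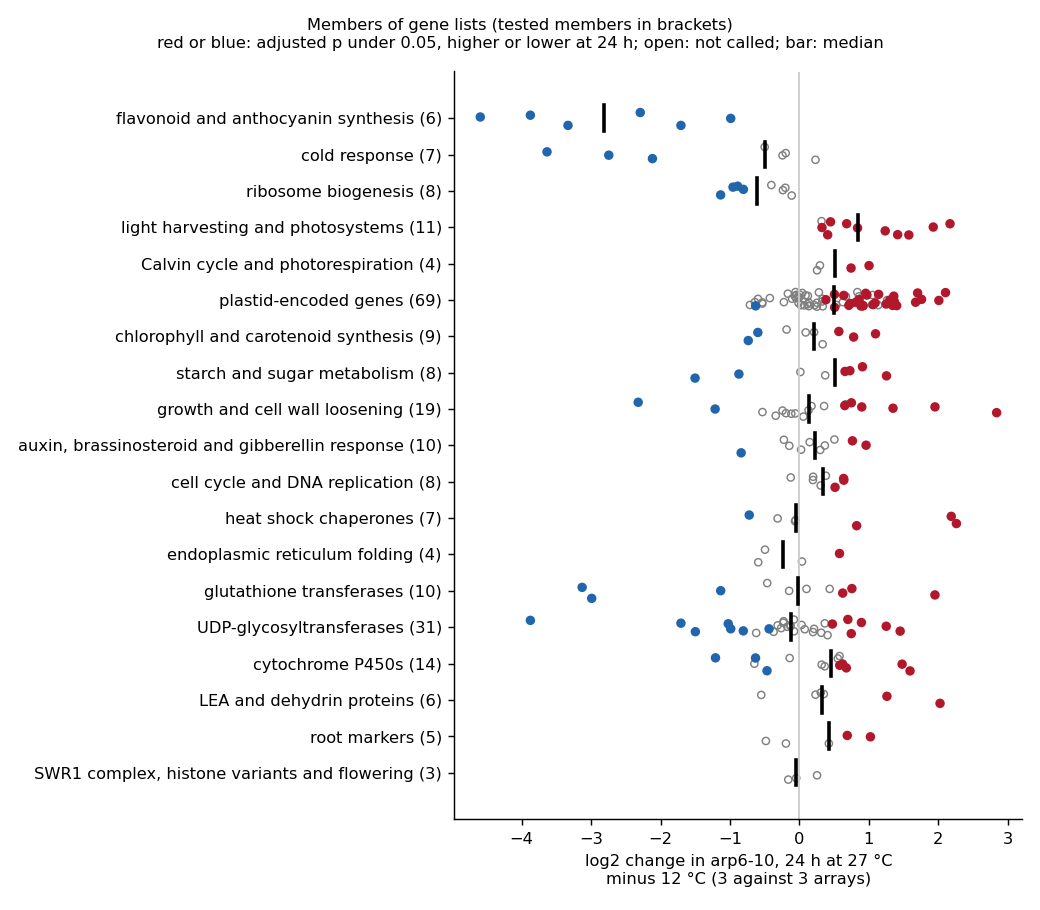
Log2 change in arp6-10 (24 h minus 12 °C, 3 against 3 arrays, horizontal axis) of each tested member of 19 gene lists; filled points passed the test, open points did not, and bars are medians. All 6 flavonoid genes lie left of 0 and all 11 light harvesting and photosystem genes right of it, while glutathione transferases and UDP-glycosyltransferases lie on both sides.

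Several lists had few called members. Over all probe sets 14% rose and 14.9% fell, so in lists of 3 to 6 members such counts give no result about a list. The late embryogenesis abundant proteins LEA18 and AtLEA4-1 rose 4.07-fold and 2.4-fold as 2 of 6, with kept groups that overlapped, and AtLEA4-1 was not called without 24 h replicate 3 or 4 or without 12 °C replicate 1 or 2. The jasmonate-responsive defensin PDF1.2b rose 5.47-fold as 1 of 5, also with overlap, on a probe set that may bind related transcripts. Of 4 glucosinolate genes UGT74B1 rose and GSTU20 fell, and of 3 phenylpropanoid genes HCT rose and AT5G66390 (PRX72) fell. TUB1 rose and TUB9 fell among 5 tubulin genes, and neither call held with every kept array left out in turn (TUB1 ended without 24 h replicate 1 or 12 °C replicate 2, and TUB9 without any of 4 arrays, 24 h replicates 3 and 4 and 12 °C replicates 1 and 4). No member passed among 3 genes each of salicylic acid defence, of histones, of proline, polyamine and lipid metabolism, and of chromatin remodelling and flowering (INO80, CHR23 and SWC2, the last a SWR1 subunit).

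Tissue makeup was looked at through marker genes. Of 5 tested root markers 2 rose and none fell, beside 14% and 14.9% of all probe sets. The 2 were NAI1 and NAI2 of endoplasmic reticulum bodies (2.03-fold and 1.61-fold), and NAI2 was not called without 12 °C replicate 4. The root hair expansins EXPA7 and EXPA18 had log2 changes of -0.19 and -0.48 and the root beta-glucosidase PYK10 of 0.42, none past the test. Summed intensity of the 5 lay between 11686 and 15583 on the kept 24 h arrays, against 6854 to 12397 on the kept 12 °C arrays. The lowest mean of a marker was 6.43 on these kept 24 h arrays and 6.63 on these kept 12 °C arrays. Their part in the other results was not tested. Seed and floral markers had no probe set paired with them alone.

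The largest increases among named genes fell mostly on loci without a symbol in the gene table. AT4G19430 stood at 7.62, 4.1, 7.76 and 7.67 at 24 h, against 4.33, 4.71, 7.80 and 4.17 at 12 °C, a 9.76-fold increase from a 12 °C mean under 5. AT4G21870 stood at 11.49, 8.18, 11.49 and 11.75 at 24 h, against 8.79, 8.40, 11.91 and 7.85 at 12 °C, a 9.38-fold increase. AT1G14120 rose 7.90-fold and AT1G51400 7.37-fold. After EXPA8 came AT1G13650, AT1G66100, CP5, AT5G47600, the jacalin-related lectin gene JAL33, AT1G73120, the beta-glucosidase gene BGLU28, AT3G24100, AT5G16030 and AT1G62510, which rose 7.14-fold to 5.67-fold. In all 15 the 3 kept arrays at 24 h lay above the 3 kept at 12 °C, as the choice of these genes required. Their changes as labelled lay between 1.07 and 1.75.

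The 15 largest decreases hold DFR, AT4G14090, UF3GT, AT5MAT, COR15A, COR15B, GSTU25 and GSTU22 from above. AT1G26380 stood at 4.08, 7.73, 4.07 and 4.08 at 24 h, against 6.98, 6.77, 4.09 and 7.52 at 12 °C. The kept 24 h arrays were thus at the bottom of the scale, and the 8.06-fold decrease is a rough value. AT2G23540 fell 7.26-fold, AT5G09480 6.66-fold, the defensin gene PDF2.1 6.36-fold, AT5G40590 6.19-fold (24 h mean under 5), AT2G04050 6.03-fold and AT4G38080 5.79-fold. Changes of the 15 as labelled ranged from -1.04 to -2.18.

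Genes that separated the groups with all 8 arrays changed less. Among the 8675 named genes tested, 50 lay wholly above and 74 wholly below the 12 °C arrays at 24 h with an unadjusted p under 0.05. None passed adjustment. Over all probe sets, at any p, 0.961% lay wholly above and 1.3% wholly below. Whether random labels would give as many was not tested, so the genes below are a description only. SRC2, named after a cold-regulated soybean gene, stood at 10.23, 10.24, 10.70 and 10.76 at 24 h, against 9.58, 8.88, 9.91 and 9.90 at 12 °C, a log2 change of 0.91 ± 0.25 SE. AT1G23340 had the largest positive change, 0.95 ± 0.27 SE, and AT1G70900, AT1G09740, AT2G18980, AT1G05575, AT3G28220, AT1G10990, AT1G08110 and AT1G12010 had 0.83 to 0.69. AT1G26660 had the largest negative change, with 6.59, 6.80, 6.41 and 5.96 at 24 h, against 7.26, 7.68, 6.97 and 7.12 at 12 °C (log2 change -0.82 ± 0.20 SE). AT3G50380, AT5G08600, AT2G38465, AT2G40960, AT5G61540, AT1G20910, AT4G01030, AT5G56380 and AT1G30540 followed with -0.81 to -0.61. In these genes the arrays labelled 24 h replicate 2 and 12 °C replicate 3 lay on the side of their labels, as the choice of the genes required.

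The response of arp6-10 was next set against that of Col-0, where 2687 probe sets rose (16.9%) and 2281 fell (14.3%) after 24 h in the same 16-array fit. The comparisons share no array, but they share the estimate of spread. In all, 2130 probe sets were called in both genotypes, 46.4% of the arp6-10 calls and 42.9% of the Col-0 calls. Of these 973 were higher in both, 991 lower in both and 166 opposite. The difference of the responses (arp6-10 minus Col-0) was itself called at 711 probe sets with a positive difference (4.47%) and 1235 with a negative one (7.76%). Among the 1964 probe sets called in both genotypes in 1 direction it was called at 138, where the change was larger in arp6-10 at 50 and smaller at 88. Total calls of the difference were 639 without Col-0 24 h replicate 1 and 1211 without arp6-10 24 h replicate 4, against 1946.

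Pigment genes fell further in arp6-10 than in Col-0. DFR changed by -4.60 in arp6-10 and by -2.61 in Col-0, a difference of -1.99 ± 0.34 SE (limma adjusted p = 0.00124). Its levels were 7.11 ± 0.51 in arp6-10 (SD, n = 3) and 8.07 ± 0.07 in Col-0 (SD, n = 2) at 24 h, and 11.71 ± 0.11 in arp6-10 and 10.68 ± 0.27 in Col-0 at 12 °C. UF3GT, AT4G14090 and CHIL had differences of -1.51, -1.52 and -1.07. These 4 differences were called also with each of the 10 arrays left out in turn. AT5MAT and UGT78D2 were called with all arrays (differences -1.05 and -0.83) but not without most single arrays, and UGT78D1 was not called (-0.43).

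COR15A, COR15B and LTI30 fell in both genotypes. COR15A changed by -3.64 in arp6-10 and -4.32 in Col-0, with a difference of 0.69 ± 0.39 SE that did not pass, and those of COR15B and LTI30, 0.71 ± 0.30 SE and 0.31 ± 0.40 SE, did not pass either. COR27 had changes of -0.50 in arp6-10 and -1.97 in Col-0, a called difference of 1.47 ± 0.32 SE. The difference for STZ, 1.45 ± 0.46 SE, was called but ended with most single arrays left out.

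Counts of called photosynthesis genes were alike in the genotypes for nuclear genes and unlike for plastid genes. Over all probe sets 14% rose in arp6-10, and 16.9% rose and 14.3% fell in Col-0. Of the 11 nuclear light harvesting and photosystem genes, 10 rose in arp6-10 and 10 in Col-0, and no difference between the genotypes was called. Of the 42 plastid genes of photosynthetic complexes, 25 rose in arp6-10, while in Col-0 1 rose and 1 fell (median -0.11). This class was formed after the values were seen, and the kept arp6-10 groups overlapped in its mean level. The count of 25 was 15 without arp6-10 12 °C replicate 1. The difference was called, and positive, for 9 of the 42, beside 4.47% of all probe sets. psbB changed by 2.1 in arp6-10 and -0.78 in Col-0, a difference of 2.89 ± 0.73 SE (limma adjusted p = 0.0148), which was not called without Col-0 12 °C replicate 2 or Col-0 24 h replicate 1. The other 8 differences ended with at least 3 of the 10 single arrays left out. The differences of rpl22 and rps3, of plastid ribosomal proteins, were negative, rpl22 with changes of -0.60 in arp6-10 and 2.03 in Col-0 and rps3 with changes of 0.04 in arp6-10 and 1.35 in Col-0. Both differences held with each array left out.

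Several chaperone genes rose in Col-0 and changed less, or by an amount that did not pass, in arp6-10. Hop1 stood at 8.87 ± 0.19 at 24 h, against 8.92 ± 0.24 at 12 °C in arp6-10 (SD, n = 3 each), and at 8.15 ± 0.07 at 24 h, against 6.55 ± 0.27 at 12 °C in Col-0 (SD, n = 2 each). The difference of the responses was -1.66 ± 0.30 SE (limma adjusted p = 0.00201), and that of Hop2 -1.70 ± 0.32 SE. ATERDJ3B changed by 0.57 in arp6-10 and 2.07 in Col-0 (difference -1.5 ± 0.26 SE). It stood at 9.97 ± 0.22 at 24 h, against 9.40 ± 0.21 at 12 °C in arp6-10 (SD, n = 3 each). In Col-0 it stood at 9.94 ± 0.32 at 24 h, against 7.87 ± 0.04 at 12 °C (SD, n = 2 each). The genotypes were thus closer in ATERDJ3B at 24 h than at 12 °C, and its mean on the arp6-10 2 h arrays was 10.72. CHR23, a chromatin remodelling ATPase, changed by -0.05 in arp6-10 and 1.74 in Col-0 (difference -1.79 ± 0.36 SE), from a Col-0 12 °C mean of 4.16 at the bottom of the scale. SWC2 had a difference of -1.54 ± 0.39 SE, which was not called without Col-0 24 h replicate 1. Its Col-0 12 °C mean, 4.38, was also near the bottom of the scale. Hop3 and AT5G48570 rose in both genotypes, and their differences of 0.08 ± 0.46 SE and -0.92 ± 0.46 SE did not pass.

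Other called differences that held with each array left out were positive for EXPA8, WES1, EXGT-A3, JAL33, AT4G19430 and AT5G47600. EXPA8 stood at 8.59 ± 0.57 at 24 h, against 5.75 ± 0.46 at 12 °C in arp6-10, and at 8.85 ± 0.12 at 24 h, against 7.70 ± 0.21 at 12 °C in Col-0, a difference of 1.69 ± 0.39 SE. The means of the genotypes were closer at 24 h than at 12 °C. WES1 changed by 0.96 in arp6-10 and by -0.30 in Col-0, which did not pass there. APL3 fell in arp6-10 with a change of 0.35 in Col-0 that did not pass, a difference of -1.85 ± 0.43 SE. The replication gene POLD3 and the dehydrin AT1G54410 (HIRD11) had differences of -2.14 and -3.03, with changes of -0.12 and -0.55 in arp6-10 and 2.01 and 2.48 in Col-0, where the 12 °C mean of POLD3 was under 5. Of 54 named genes or list members with a called difference, 20 kept the call with each array left out in turn.

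**Figure D5:**
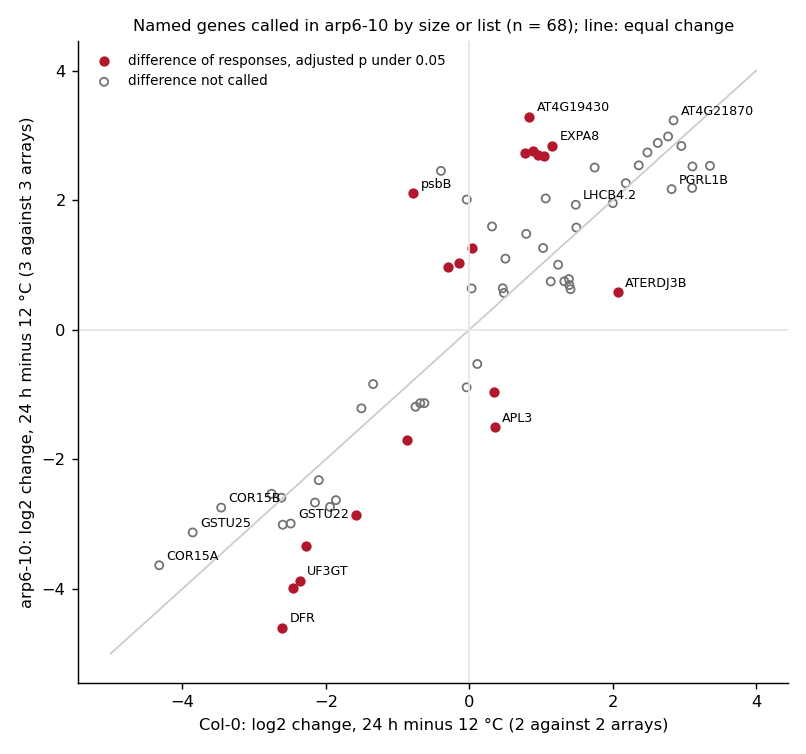
Log2 change after 24 h of 68 named genes in arp6-10 (vertical axis, 3 against 3 arrays) and in Col-0 (horizontal axis, 2 against 2 arrays); the line marks equal change. The 19 filled points have a called difference of responses, among them DFR (-4.60 and -2.61) and EXPA8 (2.84 and 1.15), and COR15A (-3.64 and -4.32) does not. Over all probe sets 4.47% had a called positive difference and 7.76% a negative one, and the genes shown were chosen by their change in arp6-10.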

How the data were processed

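The deposited table holds linear probe set intensities of 18 Affymetrix ATH1 arrays, which per the submitters' processing notes came from GCOS. Which GCOS version and signal algorithm were used is not given in the sources used here. From these, log2(intensity + 16) was taken and quantile normalized over all 18 arrays. The 64 AFFX controls and probe sets under the 30th percentile of mean level were left out, which left 15922. limma 3.58.1 (R 4.3.3) fitted the 6 group means with a trended eBayes prior, on 18 arrays (12 residual degrees of freedom) or 16 (10). The number of arrays limits the precision. Of 22746 probe sets, 13513 were paired with 1 gene, 503 with several and 8730 were not listed, and 13436 matched RefSeq TAIR10.1, which gave the symbols. For 67 genes with several tested probe sets the brightest was used. Gene lists were matched by symbol, description or plastid origin, and 1 chitinase that shares the symbol CHI was removed from the flavonoid list.

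Genes named are the 15 largest increases and decreases called with non-overlapping kept arrays, the 10 largest each way as labelled with non-overlapping groups and an unadjusted p under 0.05, and list members. The comparison, lists and tests were chosen with earlier results of these data known. Replicate numbers do not pair the samples: the correlations of deviations of same-numbered arrays were -0.10, 0.33, 0.56 and -0.40 as labelled, and 0.27 and -0.02 for replicates 1 and 4 of the kept arrays. The fit was checked on simulated data. Alternatives tried are given in the closing section.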

Additional observations from a re-analysis of the deposited data

Results flagged for a closer look

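Chance marks about 1 in 20 groups of 4 as holding an array far from the others. Most of the named genes were chosen for large changes in a fit without 2 arrays that resembled the other group, so the standing apart of these arrays in such genes follows from that choice. On the array labelled arp6-10 24 h replicate 2, the mean of the 100 genes lowered in Col-0 was 8.18, far above the other 24 h arrays. The same array stood far below its group for AT4G19430 (4.1), AT4G21870 (8.17), AT1G14120 (5.22), AT1G51400 (9.82), AT1G13650 (4.63), CP5 (9.78), AT5G47600 (6.97), JAL33 (9.11), AT3G24100 (5.68) and AT5G16030 (7.33), and for WES1 (7.09), PGRL1B (6.11), LHCB4.2 (11.44) and LHCB4.3 (9.67). It stood far above its group for AT4G14090 (10.64), UF3GT (10.52), COR15A (11.55), AT5MAT (9.02), AT1G26380 (7.73), COR15B (11.33), AT5G40590 (8.72), UGT78D2 (11.17) and GID1B (7.57). Elsewhere at 24 h, AT5G08600 was far below its group on replicate 4 (5.55) and AT1G20910 on replicate 1 (6.67).

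On the array labelled arp6-10 12 °C replicate 3, the means of the genes raised and lowered in Col-0 were 8.75 and 6.44, far above and far below the other 12 °C arrays. It stood far above its group for AT4G19430 (7.80), EXLA1 (8.40), UGT74B1 (9.34) and LHCB4.2 (13.56). It stood far below for DFR (6.79), UF3GT (5.87), COR15A (7.65), GSTU25 (7.47), GSTU22 (7.0), AT2G23540 (6.66), AT5G09480 (6.42), AT2G04050 (5.47), AT4G38080 (6.96) and GSTU20 (10.31).

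The response to 24 h of warmth had a called difference between arp6-10 and Col-0 for 22 of the named genes. The test was limma's, with the 2 arrays set aside. Over all probe sets, 4.47% had a called positive difference and 7.76% a negative one. Most named genes were chosen for large changes in arp6-10, so this count is not set against those shares. The call held with each array left out for AT4G19430, EXPA8, AT5G47600, JAL33, WES1, DFR, AT4G14090, UF3GT, ATERDJ3B and APL3. The other calls each ended with some single array left out. The difference (arp6-10 minus Col-0, log2) was positive for AT4G19430 (2.45), EXPA8 (1.69), AT1G66100 (1.86), AT5G47600 (1.96), JAL33 (1.73), AT1G73120 (1.63), AT1G05575 (1.52), WES1 (1.26), psbB (2.89), NAI1 (1.16) and SWEET17 (1.22). It was negative for DFR (-1.99), AT4G14090 (-1.52), UF3GT (-1.51), AT5MAT (-1.05), AT2G23540 (-1.28), AT5G08600 (-1.97), AT4G01030 (-1.26), UGT78D2 (-0.83), ATERDJ3B (-1.5), NRPA1 (-1.30) and APL3 (-1.85). The Col-0 12 °C means of AT5G08600 (4.43), AT4G01030 (4.94) and AT4G19430 (4.96) were under 5 and are not shown to be above background.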

How the results depend on the processing

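As labelled, the number of called probe sets was 0 under every alternative run except 3. Array weights gave 3955 (1903 higher, 2052 lower), and leaving out single arrays gave 0 to 1518, with 1518 without 24 h replicate 2 and 431 without 12 °C replicate 3. With these 2 set aside, the 4592 calls became 3651 to 4002 with a further array left out and 4227 to 4854 under the other alternatives (quantile normalization over the 16 arrays, added after seeing the data, 4597). Values as deposited gave 4599, of which 2568 were higher and 2031 lower, with a median shift of 0.07 over all probe sets. The 1946 differences between genotypes ranged from 639 (without Col-0 24 h replicate 1) to 2028 with single arrays left out, with 1211 without arp6-10 24 h replicate 4, and from 1508 to 2225 under the other alternatives. A fit with the replicate block gave 0 calls as labelled, 4637 with the 2 arrays set aside and 2225 differences, and changed no call of a named gene. Of 156 named genes or list members called with the 2 arrays set aside, 49 lost the call without at least 1 of the 6 kept arrays (added after seeing the data), among them APL4, CHLI2, GSTU16, GSTU27, POLA3, SBE2.2, rbcL and rpl32. The alternatives were run on 68 of these, of which 58 were left by the filter at the 50th percentile. None reversed, and 6 were lost: ATERDJ3B, AtLEA4-1, AUR1, NAI2, TUB1 and, also when only the compared groups were fitted, TUB9. The cause of these losses was not tested. Genes near the bottom of the scale have rough folds.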

Other observations

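QQS, which regulates starch content and rose 1.88-fold in arp6-10, stood at 11.43 ± 0.14 at 24 h and 10.52 ± 0.09 at 12 °C in arp6-10 (SD, n = 3 each), against 5.68 ± 0.42 at 24 h and 5.27 ± 0.04 at 12 °C in Col-0 (SD, n = 2 each). The ranges of the genotypes were far apart at both temperatures, and this difference in level was not tested. The difference of the responses, 0.49 ± 0.30 SE, did not pass.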
